A study of Mus musculus with 8 samples.

Results

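Toll-like receptors are the germline-encoded sensors of the innate immune system, and Unc93b1 is the chaperone that carries those that act inside the cell to the endosome. The 10 genes described here were the 9 mouse receptors Tlr1, Tlr2, Tlr3, Tlr4, Tlr6, Tlr7, Tlr8, Tlr9 and Tlr13 together with Unc93b1, chosen by gene symbol among 22880 counted genes. All 10 passed the filter on low counts that left 14001 genes for testing. Of these 10, 5 receptors signal from endosomes (Tlr3, Tlr7, Tlr8, Tlr9 and Tlr13) and 4 from the cell surface (Tlr1, Tlr2, Tlr4 and Tlr6). RNA was sequenced from the soleus, a calf muscle rich in slow fibres, of 4 control mice (Dnm2 +/+) and 4 Dnm2 wt/K562E mice (genotype Dnm2 +/K562E), all male, 2 months old and on a C57BL/6 background. Dnm2 encodes dynamin 2, a GTPase that cuts vesicles from membranes, and K562E is a point mutation found in a dominant form of Charcot-Marie-Tooth neuropathy. The mutant mice carried 1 knock-in allele in every cell, not in muscle alone, with a LoxP site left in an intron, and controls were littermates or age-matched animals. The comparison asked how the mutation changed the RNA of the whole muscle, and the 10 genes were followed within it.

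As background, surface receptors bind components of microbial walls. TLR2 pairs with TLR1 or TLR6 to recognise lipopeptides, and TLR4 binds lipopolysaccharide with the help of MD-2 and CD14. Endosomal receptors bind nucleic acids: TLR3 binds duplex RNA, TLR7 and TLR8 bind RNA fragments and nucleosides, TLR9 binds unmethylated CpG DNA, and TLR13 binds bacterial ribosomal RNA. Most receptors signal through the adaptor MyD88, TLR3 signals through TRIF (Ticam1), and TLR4 uses both. Macrophages are a main source of most of these receptors in tissues, and several are also made by fibroblasts, endothelial cells and muscle fibres.

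The genes lie at 8 places in GRCm38 according to GENCODE M21. Tlr8 (chrX:167242696-167264329, minus strand) and Tlr7 (chrX:167304929-167330558, minus strand) were neighbours separated by 40599 bases, and Tlr1 (chr5:64924679-64933563, minus strand) and Tlr6 (chr5:64952031-64960097, minus strand) were separated by 18467 bases. The others stood alone: Tlr2 at chr3:83836272-83841767 (minus), Tlr3 at chr8:45395665-45411080 (minus), Tlr4 at chr4:66827584-66930284 (plus), Tlr9 at chr9:106222598-106226883 (plus), Tlr13 at chrX:106143204-106160493 (plus) and Unc93b1 at chr19:3935186-3949340 (plus). Tlr1 and Tlr6 are near-identical over part of their coding sequence: 20.0% of the 31-base stretches of Tlr1 transcripts and 16.6% of those of Tlr6 also occurred in another gene, 607 of them shared by this pair. Reads from those stretches may have been assigned to the other gene or left out, and how many were affected was not measured, so the split between Tlr1 and Tlr6 is given with that reservation. In Tlr3, 6.10% of stretches were shared with an antisense transcript that was not counted, and for Tlr4 the share was 0.667%. Tlr2, Tlr7, Tlr8, Tlr9, Tlr13 and Unc93b1 shared none.

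Promoter windows from RefSeq (GRCm38.p6, 250 bases before to 50 after an annotated start) were at hand for 7 of the 10 genes, all but Tlr4, Tlr7 and Unc93b1. The windows of Tlr2, Tlr8, Tlr9 and Tlr13 are shown because these 4 receptors had higher RNA in Dnm2 wt/K562E soleus. That of Tlr3 is shown as an endosomal receptor whose RNA did not pass the test. The windows of Tlr1 and Tlr6, whose RNA did not pass either, are not shown, and both genes had a window with a match. The windows shown are therefore no comparison of genes that rose with genes that did not. Capitals mark matches, on either strand, to GAGGAA (a core of purine-rich sites of the ETS family, to which PU.1 belongs), to GGGANTTCC (a form of the NF-kappa-B site) or to GAAANNGAA (a form of the interferon response element), where N is any base. The windows are Tlr2 at chr3:83841559-83841858 (minus strand), Tlr8 at chrX:167264280-167264579 (minus), Tlr9 at chr9:106222348-106222647 (plus), Tlr13 at chrX:106143025-106143324 (plus) and Tlr3 at chr8:45410331-45410630 (minus).
Tlr2: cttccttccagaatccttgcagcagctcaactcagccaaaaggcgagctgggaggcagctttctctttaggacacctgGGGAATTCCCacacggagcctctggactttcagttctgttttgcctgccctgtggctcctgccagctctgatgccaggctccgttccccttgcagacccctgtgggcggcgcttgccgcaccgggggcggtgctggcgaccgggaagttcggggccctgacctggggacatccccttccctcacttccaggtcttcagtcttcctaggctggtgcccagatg
Tlr8: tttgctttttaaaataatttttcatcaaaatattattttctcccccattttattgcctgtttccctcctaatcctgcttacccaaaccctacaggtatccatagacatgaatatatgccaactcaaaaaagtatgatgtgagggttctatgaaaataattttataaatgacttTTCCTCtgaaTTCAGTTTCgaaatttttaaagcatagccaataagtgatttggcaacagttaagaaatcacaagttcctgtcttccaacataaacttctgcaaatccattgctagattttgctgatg
Tlr9: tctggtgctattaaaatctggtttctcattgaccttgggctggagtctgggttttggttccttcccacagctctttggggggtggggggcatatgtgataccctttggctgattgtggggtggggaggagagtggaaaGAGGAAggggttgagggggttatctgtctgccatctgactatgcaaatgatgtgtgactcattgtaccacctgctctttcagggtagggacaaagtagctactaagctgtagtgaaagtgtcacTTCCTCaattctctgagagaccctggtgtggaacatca
Tlr13: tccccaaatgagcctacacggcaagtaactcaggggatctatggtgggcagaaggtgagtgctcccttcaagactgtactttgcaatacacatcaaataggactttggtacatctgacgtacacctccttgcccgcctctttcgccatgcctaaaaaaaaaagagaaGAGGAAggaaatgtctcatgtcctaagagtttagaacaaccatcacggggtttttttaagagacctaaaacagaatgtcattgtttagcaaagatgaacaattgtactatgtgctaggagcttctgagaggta
Tlr3: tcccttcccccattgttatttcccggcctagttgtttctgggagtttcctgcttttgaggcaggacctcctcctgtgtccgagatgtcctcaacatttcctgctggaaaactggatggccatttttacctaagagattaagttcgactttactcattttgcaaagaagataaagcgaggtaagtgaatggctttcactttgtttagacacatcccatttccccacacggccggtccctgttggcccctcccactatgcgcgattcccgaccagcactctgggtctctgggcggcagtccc
The first base of a GAGGAA match lay 77 bases upstream of the start in Tlr8 (opposite strand), 83 bases upstream in Tlr13 and 112 bases upstream in Tlr9, where another lay 12 bases downstream (opposite strand). It was also in 1 of 2 windows of Tlr1, so that 4 of the 9 windows of these 7 genes held it, beside 28.3% of all 32851 windows. GGGANTTCC occurred in 1 of the 9 windows, that of Tlr2, on both strands of a palindrome 172 bases upstream, and in 1.68% of all windows. GAAANNGAA matched in Tlr8, 67 bases upstream, and in Tlr6, at overlapping positions 115 and 109 bases upstream, which made 2 of 9 windows beside 8.56% of all windows. None of the 3 patterns was in the Tlr3 window. The patterns were picked after the RNA values had been seen, and a match is a run of letters, not a shown binding site.

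Total counts ranged from 33407430 to 48832814 per mouse. Levels are given as normalized CPM, the reads of a gene scaled to a common library size after TMM correction. A gene was called different where its adjusted p in the quasi-likelihood test of edgeR was under 0.05 and its log2 fold change was 0.58 or more in size. Under that rule the share of the 14001 tested genes that was called came to 12.9% in the higher and 7.85% in the lower direction, and the median log2 fold change was 0.01. Control 4 stood apart from the other controls: it was the highest control for all 14 macrophage markers, with a summed level of 334.7 CPM against 173.5 to 180.7 in the other 3 controls. The 4 Dnm2 wt/K562E mice ran from 374.9 (mouse 4) to 632.3 (mouse 1), and 13 of the 14 markers were called higher. Dnm2 itself had 66.3 ± 4.74 normalized CPM in controls and 73.4 ± 2.43 in mutants (SD, n = 4 each; adjusted p = 0.0909), a sum of both alleles that does not check the genotype. The description of the library of mutant mouse 1 reads K452E, whereas its title and genotype label read K562E.

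Among the 10 genes, 5 rose in Dnm2 wt/K562E soleus and none fell. The 5 were the endosomal receptors Tlr7, Tlr8, Tlr9 and Tlr13 and the surface receptor Tlr2, against a background of 12.9% of all tested genes called higher. By the adjusted p alone 6 of 10 were higher and none lower, against 22.2% and 21.7% of all tested genes. The median log2 fold change over all 10 genes was 1.06. All mutants lay above all controls for 5 of the 10, beside 20.6% of all tested genes. Without control 4 these 5 genes were again called, with log2 fold changes of 1.25 for Tlr7, 1.87 for Tlr8, 1.51 for Tlr9, 1.75 for Tlr13 and 3.01 for Tlr2. Unc93b1 was then called as well, at 0.69. In whole tissue, more cells of a type and more RNA per cell cannot be told apart.

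**Figure D1:**
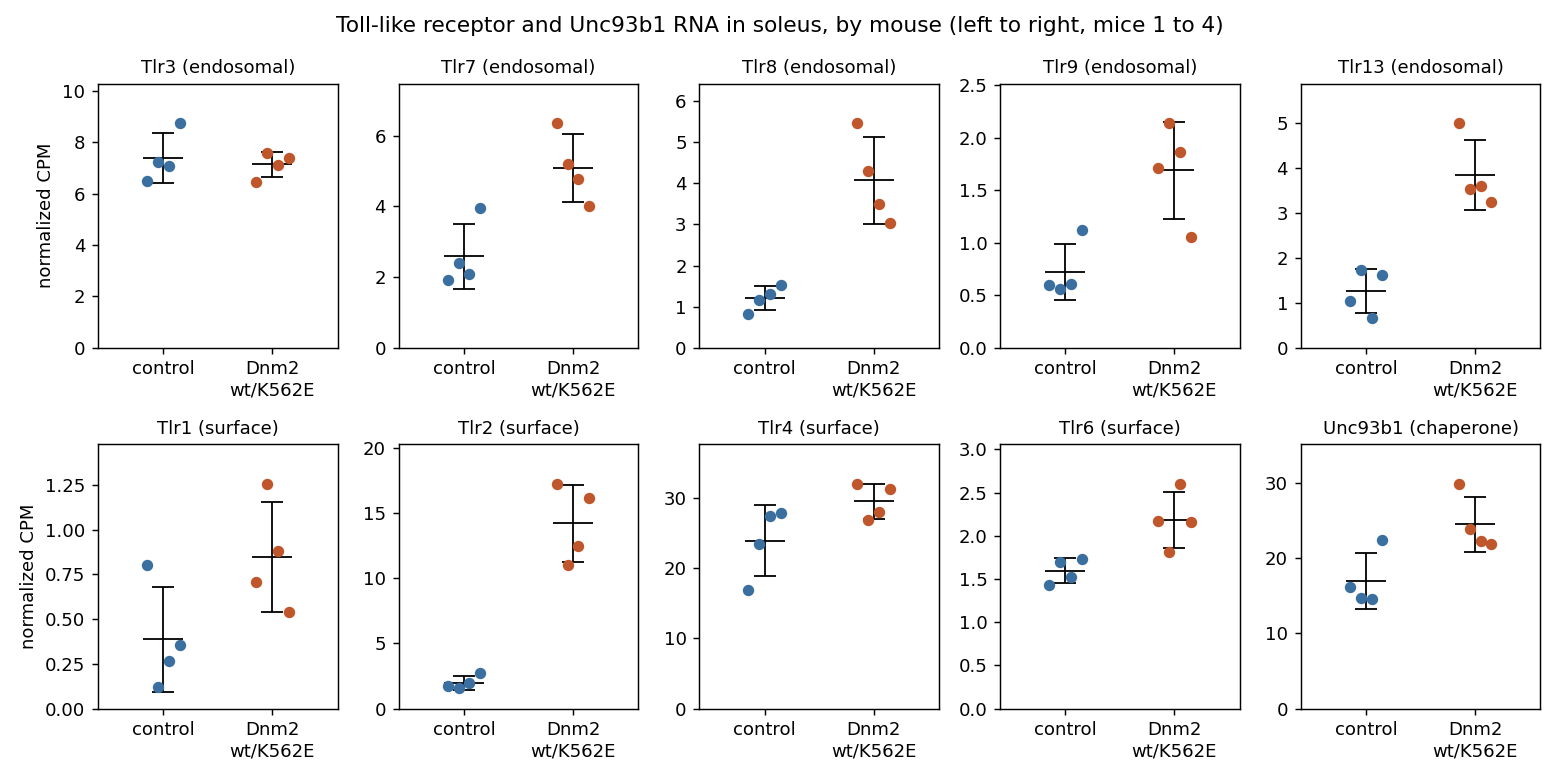
Normalized CPM of each of the 10 genes in every mouse (points, mice 1 to 4 from left to right), with the mean and SD of 4 mice per genotype in black and a vertical scale of its own for each gene. Tlr2, Tlr7, Tlr8, Tlr13 and Tlr6 have all mutants above all controls, as had 20.6% of all tested genes. The groups overlap for Tlr3, Tlr9, Tlr1, Tlr4 and Unc93b1.

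Tlr2, the shared partner of the lipopeptide receptors, showed the largest difference of the 10 genes. Its level was 1.73, 1.54, 1.95 and 2.74 normalized CPM in controls 1 to 4 and 17.2, 11.1, 12.4 and 16.2 in Dnm2 wt/K562E mice 1 to 4. Every mutant was far above every control, and the lowest mutant had 476 counts against 93 in the highest control. The log2 fold change was 2.84 (SE 0.20, 95% interval 2.39 to 3.28, adjusted p = 2.5e-06), rank 63 from the top among 14001 tested genes.

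Tlr8 and Tlr7, the neighbouring X-linked RNA sensors, both rose. Tlr8 measured 0.834, 1.16, 1.30 and 1.53 normalized CPM in controls 1 to 4 and 5.46, 4.30, 3.51 and 3.03 in mutants 1 to 4. The groups did not overlap, and the log2 fold change was 1.75 (SE 0.24, 95% interval 1.21 to 2.29, adjusted p = 0.000212). Tlr7 measured 1.91, 2.41, 2.08 and 3.94 normalized CPM in controls and 6.36, 5.21, 4.77 and 4.03 in mutants. Here control 4 and mutant 4 nearly met, with 134 and 149 counts. The log2 fold change of Tlr7 was 0.98 (SE 0.24, 95% interval 0.45 to 1.51, adjusted p = 0.00676).

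Tlr13, the receptor for bacterial ribosomal RNA that humans lack, followed the same order of genotypes. It measured 1.04, 1.72, 0.672 and 1.62 normalized CPM in controls and 4.997, 3.53, 3.60 and 3.24 in mutants, and every mutant was above every control. Its log2 fold change was 1.62 (SE 0.29, 95% interval 0.98 to 2.25, adjusted p = 0.00101).

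Tlr9, the CpG DNA sensor, was the weakest of the 4 endosomal receptors that rose by level and the only called member whose genotypes overlapped. Its counts were 20, 19, 27 and 38 in controls and 63, 92, 78 and 39 in mutants, or 0.596, 0.564, 0.605 and 1.12 normalized CPM against 1.71, 2.14, 1.86 and 1.05. Mutant 4 thus lay below control 4. The log2 fold change was 1.23 (SE 0.32, 95% interval 0.54 to 1.93, adjusted p = 0.00869).

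Tlr3, the duplex RNA sensor that signals through TRIF, stood apart among the endosomal receptors. It measured 6.50, 7.22, 7.10 and 8.74 normalized CPM in controls and 6.46, 7.60, 7.13 and 7.38 in mutants, and the mutants lay inside the range of the controls apart from mutant 1, just below it. The log2 fold change was -0.05 (SE 0.12, 95% interval -0.31 to 0.21, adjusted p = 0.768). With 218 to 327 counts per mouse, Tlr3 was the endosomal receptor with the most counts, and its interval was narrower than those of the other 4. The sign of this small value turned without control 4, to 0.03, and with scaling by library size alone, to 0.16.

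Of the surface receptors other than Tlr2, none passed both thresholds. Tlr4, the lipopolysaccharide receptor, was the most abundant of the 9 receptors, with 16.9, 23.4, 27.4 and 27.9 normalized CPM in controls and 32.0, 26.8, 27.9 and 31.3 in mutants. The ranges overlapped, and the log2 fold change of 0.30 had an interval of -0.01 to 0.61 (adjusted p = 0.103). Tlr6 measured 1.43, 1.69, 1.52 and 1.74 normalized CPM in controls and 2.17, 1.81, 2.60 and 2.16 in mutants. All 4 mutants were above all controls, as were 20.6% of all tested genes, yet the log2 fold change of 0.45 (95% interval 0.04 to 0.87) did not pass (adjusted p = 0.0726).

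Tlr1, the other partner of TLR2, was near the limit of counting. It had 27, 4, 12 and 12 counts in controls and 26, 54, 37 and 20 in mutants, or 0.804, 0.119, 0.269 and 0.353 against 0.706, 1.26, 0.883 and 0.541 normalized CPM. Control 1 lay above mutants 1 and 4. The log2 fold change was 1.15 with a wide interval of 0.06 to 2.24 (adjusted p = 0.0823), and without control 1 it was 1.76 (adjusted p = 0.0105), which passed. A difference of Tlr1 could therefore neither be shown nor bounded closely at this depth.

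Unc93b1, which carries the endosomal receptors to the endosome, measured 16.2, 14.7, 14.6 and 22.4 normalized CPM in controls and 29.9, 23.8, 22.3 and 21.9 in Dnm2 wt/K562E mice. Control 4 lay above mutants 3 and 4. The adjusted p of 0.0135 passed, but the log2 fold change of 0.53 (SE 0.15, 95% interval 0.21 to 0.86) was below the threshold of 0.58, so Unc93b1 was not called. Without control 4 it was called, at 0.69 (adjusted p = 0.001), and without mutant 4 it reached 0.58 (adjusted p = 0.0175).

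**Figure D2:**
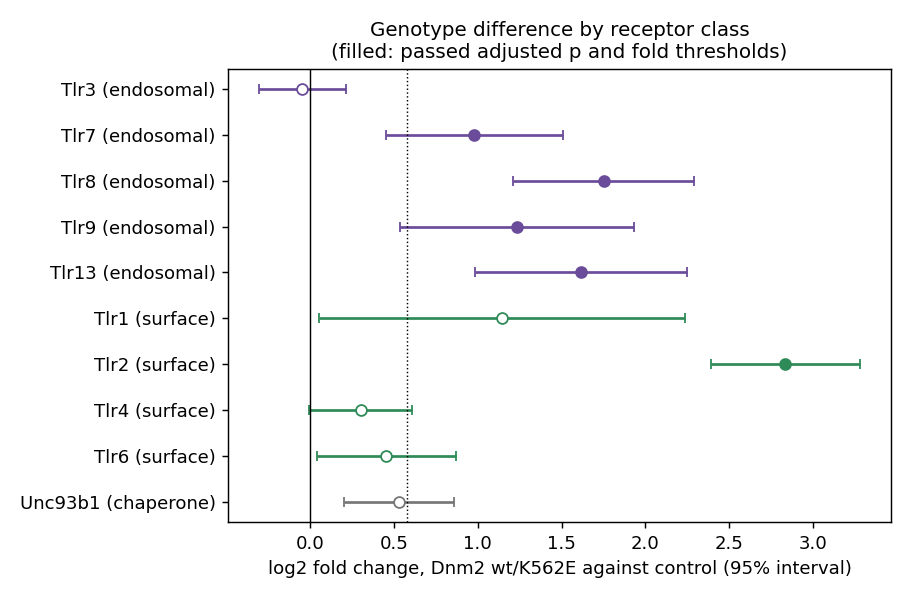
Log2 fold change (Dnm2 wt/K562E against control) of each gene with its 95% interval, by class. Filled points (Tlr7, Tlr8, Tlr9, Tlr13 and Tlr2) passed both thresholds, the solid line marks no difference and the dotted line a log2 fold change of 0.58.

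By class, 4 of 5 endosomal receptors and 1 of 4 surface receptors were called higher, beside 12.9% of all tested genes. The median log2 fold change was 1.23 for the endosomal and 0.80 for the surface receptors. The difference between the classes in these counts was not tested. The mean log2 CPM of the endosomal receptors was 0.603, 0.913, 0.659 and 1.35 in controls and 2.20, 2.08, 1.95 and 1.68 in mutants, a difference of 1.10 between the genotype means. That of the surface receptors was 1.32, 0.872, 1.20 and 1.46 in controls and 2.47, 2.38, 2.44 and 2.35 in mutants, a difference of 1.20. Both class means were higher in every mutant than in every control.

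The endosomal mean minus the surface mean was -0.33 ± 0.36 in controls and -0.43 ± 0.19 in mutants (log2 scale, SD, n = 4), so the ranges overlapped and the balance of the classes differed by -0.10, less than the spread between mice. This small value rested on single genes and mice. It was 0.19 without Tlr3, 0.44 without Tlr2 and 0.02 without control 2. No test was made of a score over these receptors.

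To compare levels between genes, normalized CPM were divided by the exon length in kilobases. In controls the order of mean CPM per kilobase was Unc93b1 (5.59), Tlr4 (4.30), Tlr3 (1.42), Tlr2 (0.660), Tlr7 (0.633), Tlr6 (0.428), Tlr8 (0.336), Tlr13 (0.294), Tlr9 (0.207) and Tlr1 (0.116). In Dnm2 wt/K562E mice it was Unc93b1 (8.07), Tlr4 (5.31), Tlr2 (4.72), Tlr3 (1.37), Tlr7 (1.25), Tlr8 (1.14), Tlr13 (0.893), Tlr6 (0.587), Tlr9 (0.486) and Tlr1 (0.253). Among controls, the ranges of neighbours were apart between Tlr4 and Tlr3, between Tlr3 and Tlr2 and between Tlr7 and Tlr6, and the other neighbours overlapped. Among mutants they were apart between Unc93b1 and Tlr4, between Tlr2 and Tlr3 and between Tlr13 and Tlr6. Tlr2 thus moved from a level near that of Tlr7 to a range overlapping that of Tlr4.

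Ratios within a mouse, on the same CPM per kilobase scale, are given for 5 pairs of receptors. Tlr2 was 1.13 to 1.95 times Tlr6 in controls (median 1.54) and 5.92 to 9.82 times in mutants (median 8.39). Against Tlr4, Tlr2 went from a median ratio of 0.156 in controls (0.121 to 0.189) to 0.887 in mutants (0.762 to 0.995). Neither pair of ranges overlapped. Tlr8 was 0.442 to 0.710 times Tlr7 in controls (median 0.523) and 0.837 to 0.978 times in mutants (median 0.898), so the neighbouring X-linked genes did not shift in step. Tlr7 against Tlr3, the pair of RNA sensors with different adaptors, was 0.374 to 0.576 in controls (median 0.400) and 0.696 to 1.25 in mutants (median 0.864), again without overlap. The ratio of Tlr9 to Tlr7 overlapped, with a median of 0.337 in controls (0.275 to 0.367) and 0.387 in mutants (0.307 to 0.482).

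Mouse by mouse, the 10 genes followed the macrophage markers in part. Control 4 was the highest control for 8 of the 10 genes, as for 14 of 14 macrophage markers. Mutant 4 was the lowest mutant for 6 of the 10 genes, for all 4 endosomal receptors that rose and for 9 of 14 markers. Mutant 1 was the highest mutant for 6 of the 10 genes and 13 of 14 markers. Among the markers, Cd68 (a lysosomal glycoprotein; log2 fold change 1.77, adjusted p = 0.000154), Adgre1 (the F4/80 antigen; 1.20, adjusted p = 0.00151) and Csf1r (the receptor for macrophage colony-stimulating factor; 1.18, adjusted p = 0.00129) were called higher in the edgeR test. So were Lgals3 (galectin-3; 2.10, adjusted p = 0.000155) and C1qa (a complement subunit; 1.20, adjusted p = 0.000806), and Cd163 was not (0.64, adjusted p = 0.0808).

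Each gene was therefore also set against the summed level of the 14 macrophage markers in the same mouse, as CPM per 100 CPM of markers. On that scale Tlr2 was 0.996, 0.854, 1.10 and 0.818 in controls and 2.73, 2.20, 2.74 and 4.31 in mutants, and Tlr8 was 0.481, 0.641, 0.736 and 0.457 in controls and 0.863, 0.856, 0.772 and 0.807 in mutants. These were the only members with all mutants above all controls on the summed scale, at ratios of means of 3.18 and 1.42. Set against each marker on its own, a comparison added after the values were seen, Tlr2 had all mutants above all controls for 13 of 14 markers (ratios 1.68 to 4.71, the lowest against Lgals3). The Tlr8 result depended on the marker: all mutants were above all controls for 7 of 14, the ranges overlapped for the other 7, and the ratio was 0.791 against Lgals3, 0.930 against Cd68 and 2.06 against Cd163. Tlr7 was 1.20 ± 0.0968 in controls and 1.04 ± 0.0288 in mutants (SD, n = 4), with all mutants slightly below all controls. Tlr3 (ratio of means 0.423) and Unc93b1 (0.625) also had all mutants below all controls. Marker by marker this held for 3 of 14 with Tlr7, 12 of 14 with Tlr3 and 11 of 14 with Unc93b1, and the remaining ranges overlapped. On the summed scale the ranges overlapped for Tlr9 (1.04), Tlr13 (1.30), Tlr1 (0.889), Tlr4 (0.534) and Tlr6 (0.590). For Tlr4 they barely met, with a lowest control of 8.33 and a highest mutant of 8.35. Marker by marker, all mutants were below all controls for 7 of 14 with Tlr4 and 4 of 14 with Tlr6. All were above for 1 of 14 with Tlr9, and every range overlapped for Tlr13 and Tlr1. How much of any difference in receptor RNA went with the macrophage markers was not tested.

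**Figure D3:**
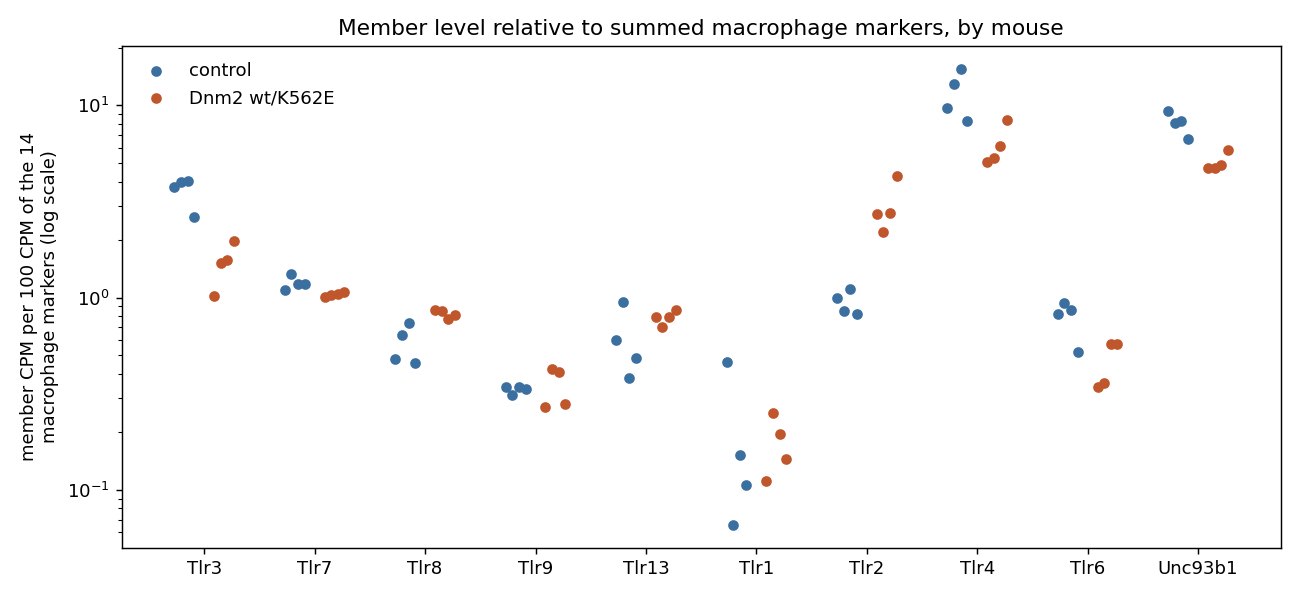
Level of each gene per 100 CPM of the 14 summed macrophage markers, 1 point per mouse, on a log scale. Tlr2 and Tlr8 lie above the controls in all 4 Dnm2 wt/K562E mice, Tlr3, Tlr7 and Unc93b1 lie below, and the rest overlap.

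Markers of other cell types that can carry these receptors were measured in the same mice. Counts of called markers are read beside 12.9% of all tested genes called higher and 7.85% called lower. Fibroblast markers (Pdgfra, Pdgfrb, Dpt and Lum) summed to 263.0 to 328.4 CPM in controls and 472.0 to 615.1 in mutants, and 3 of 4 were called higher. Endothelial markers summed to 810.4 to 849.9 CPM in controls and 576.3 to 661.6 in mutants, and 1 of 4 (Kdr) was called lower. By the adjusted p alone 4 of 4 were lower, beside 21.7% of all tested genes. All 4 had all mutants below all controls, as had 20.5% of all tested genes. Dendritic cell markers overlapped, at 13.4 to 23.7 CPM in controls and 16.1 to 20.8 in mutants, with Flt3 called higher (log2 fold change 1.45, adjusted p = 0.0473). Zbtb46, which made up most of that sum, was at 11.05 to 17.0 CPM in controls and 8.27 to 13.5 in mutants (-0.51, adjusted p = 0.0314, short of the fold threshold). The other 4 dendritic markers had log2 fold changes of 0.34 (Clec9a) to 1.84 (Xcr1) and did not pass. Neutrophil, B cell and T and NK cell markers were low in all mice, at most 3.23 CPM in sum, and 1 of 6, 1 of 4 and 1 of 6 of them passed the filter and were tested, none called. Their summed levels overlapped between genotypes, with ratios of means (mutant over control) of 2.00, 0.574 and 2.03. The neutrophil marker Ly6g was at 0 counts throughout. Of the markers under the filter, the B cell gene Cd79a was at 0.238 to 0.655 CPM in controls and 0.0272 to 0.215 in mutants, without overlap. Satellite cell markers summed to 10.7 to 15.1 CPM in controls and 1.78 to 3.65 in mutants, with 3 of 3 called lower. The 8 soleus fibre markers, high in every library, summed to 54320 to 62410 CPM in controls and 35510 to 40380 in mutants. Of these 8, 3 were called lower, and 7 were lower by the adjusted p alone with all mutants below all controls. The part of these changes in the receptor results was not tested.

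The remaining mouse receptors were scarce. Tlr5 (log2 fold change 0.62, adjusted p = 0.121) and Tlr11 (1.04, adjusted p = 0.187) were tested and not called, and Tlr12 had at most 1 count in any mouse. Over 8 lists of pathway genes, from receptor transport to cytokines, 21 of 60 tested genes were called higher and none lower, against 12.9% and 7.85% of all tested genes. By the adjusted p alone 30 were higher and 4 lower, against 22.2% and 21.7%. The lists had a median log2 fold change of 0.34 beside 0.01 for all tested genes.

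Genes that fold, transport or cut the endosomal receptors gave 7 of 14 called higher, beside 12.9% of all tested genes. The lists are short, and their counts were not tested against that share. In the transport list 3 of 9 rose, with a list median of 0.27: Rab7b, a late-endosomal GTPase (1.19, adjusted p = 0.000148), Hps1, a subunit of a lysosome biogenesis complex (0.83, adjusted p = 0.00311), and Cnpy3, an endoplasmic reticulum chaperone of several TLRs (0.59, adjusted p = 0.000125). Hsp90b1, the gp96 chaperone (0.27, adjusted p = 0.018), and Ap3b1, of the AP-3 sorting complex (0.45, adjusted p = 0.000176), passed the adjusted p but not the fold threshold. In the other direction Arl8b did the same (-0.17, adjusted p = 0.0266). It had all mutants below all controls, as had 20.5% of all tested genes. Among the endosomal proteases, which trim TLR ectodomains to a signalling form, 4 of 5 rose with a median of 0.68. They were Ctss (1.66, adjusted p = 0.000142), Ctsk (1.06, adjusted p = 3.34e-05), Ctsl (0.68, adjusted p = 1.81e-05) and Lgmn (0.59, adjusted p = 0.000265).

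Ctss, or cathepsin S, was at 8.17 to 17.1 normalized CPM in controls and 32.3 to 46.1 in mutants. It is also a typical macrophage protease. Lgmn, the asparaginyl protease legumain, was at 64.3 to 65.8 in controls and 88.9 to 117.8 in mutants.

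Of the 6 co-receptors of surface TLRs, 3 rose, beside 12.9% of all tested genes, and the median was 0.74. Cd180 (1.58, adjusted p = 0.00391) and its partner Ly86, or MD-1 (1.20, adjusted p = 0.000723), form a TLR4-like complex without a signalling domain, and Cd14 (1.03, adjusted p = 0.00261) hands lipopolysaccharide to TLR4. Ly96, the MD-2 subunit without which TLR4 does not bind its ligand, did not pass (0.34, adjusted p = 0.364), with 0.804 to 1.86 normalized CPM in controls and 1.12 to 2.10 in mutants. Cd36, a fatty acid transporter and TLR2 co-receptor abundant in slow muscle, was at -0.44 (adjusted p = 0.0031), short of the fold threshold.

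Downstream of the receptors, 1 of 5 adaptors, 3 of 15 kinases and ubiquitin ligases and 1 of 8 brakes were called higher, shares that are read against the 12.9% of all tested genes and, in lists this short, show nothing about the lists as such. The adaptors had a median of 0.11. The called adaptor was Ticam2, or TRAM, which links TLR4 to TRIF (0.97, adjusted p = 0.0444), whereas Myd88 (0.17, adjusted p = 0.189) and Ticam1 (0.04, adjusted p = 0.809) did not pass. Myd88 had 8.85 to 10.8 normalized CPM in controls and 10.3 to 11.98 in mutants. The kinases and ubiquitin ligases had a median of 0.15, and the called genes were Traf3, a ubiquitin ligase of the interferon arm (0.87, adjusted p = 2.5e-06), Btk, a kinase of myeloid and B cells (0.96, adjusted p = 0.023), and Ikbke (0.69, adjusted p = 0.0486).

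Of 9 transcription factors 4 rose, beside 12.9% of all tested genes, with a median of 0.39. Spi1, or PU.1, the myeloid master regulator, was at 1.25 to 3.94 normalized CPM in controls and 5.19 to 7.41 in mutants (1.49, adjusted p = 0.00163). The others were Nfkb2 (0.95, adjusted p = 3.09e-05), Irf5 (0.93, adjusted p = 0.000947) and Irf8 (0.80, adjusted p = 0.00979). Irf7, which drives interferon genes after TLR7 and TLR9 engagement, did not pass (-0.24, adjusted p = 0.0898). Of 8 brakes of the pathway only Tnfaip3, the ubiquitin-editing enzyme A20, was called (0.93, adjusted p = 0.00145), and the median was 0.04.

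Response cytokines were mostly under the filter: 3 of 11 were tested and 2 rose, beside 12.9% of all tested genes, so this count covers few genes. Cxcl10 (2.78, adjusted p = 0.0104) had 1 to 18 counts in controls and 25 to 80 in mutants, and Ccl2 (1.86, adjusted p = 0.00533) had 6 to 25 and 42 to 110. Both are chemokines that attract leukocytes. Ifnb1 had 0 counts in all 8 mice, which allows up to 0.0894 CPM in the mouse with the highest limit (3 counts, counting error only), and Tnf reached at most 12 counts and Il6 at most 8. Il1b, also under the filter, had 0 to 6 counts in controls and 4 to 24 in mutants, with overlap.

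Matrix proteins and other molecules that have been described as endogenous ligands of TLR2 and TLR4 formed a separate list, in which 5 of 7 tested genes rose with a median of 1.21, beside 12.9% of all tested genes. Tnc, or tenascin C, was at 12.2 to 22.5 normalized CPM in controls and 69.2 to 124.8 in mutants (2.49, adjusted p = 1.42e-05). Bgn, or biglycan (1.44, adjusted p = 9.34e-06), and Fn1, or fibronectin (1.21, adjusted p = 7.55e-05), were also higher in the edgeR test. The 2 tested genes that did not rise were Hspd1, a mitochondrial chaperone (-0.57, adjusted p = 0.000285, short of the fold threshold, with all mutants below all controls), and Hmgb1, a chromatin protein (-0.15, adjusted p = 0.0747). S100a8 and S100a9 were under the filter. S100a8 had 1 to 4 counts in controls and 9 to 29 in mutants, without overlap in CPM. S100a9 had 5 to 11 and 5 to 46, with overlap. Tnc, Bgn and Fn1 are made by fibroblasts, whose markers rose in the same mice, and their part in receptor RNA was not tested.

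**Figure D4:**
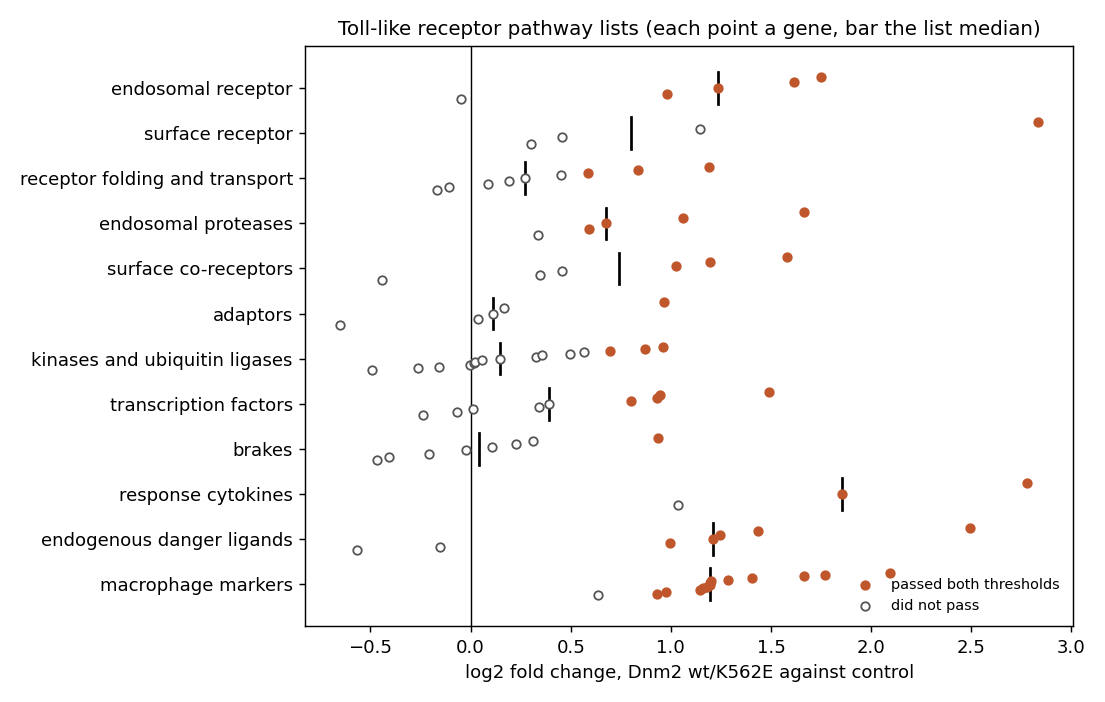
Log2 fold change (Dnm2 wt/K562E against control) of every tested gene of each list, with the list median as a black bar and genes that passed both thresholds filled. The medians were 1.86 for response cytokines (3 tested genes), 1.23 for endosomal receptors, 1.21 for danger ligands and 1.20 for macrophage markers. They were 0.80 for surface receptors, 0.74 for co-receptors, 0.68 for proteases and 0.39 for transcription factors. The lowest were transport (0.27), kinases (0.15), adaptors (0.11) and brakes (0.04).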

How the data were processed

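RNA-seq counts of soleus from 4 control and 4 Dnm2 wt/K562E mice were used, each mouse a separate animal. The authors deposited raw counts per Ensembl gene, without normalization. Per the labels they used Trimmomatic 0.33, STAR 2.5.1b, GRCm38.p5, featureCounts and edgeR 3.14.0. In the paper's methods, alignments under a minimum mapping quality were left out, multi-mapping reads that remained were taken at the primary alignment, and reads over several genes added to each. The use of strand is not given in the sources used here, and the methods name a poly A library kit whereas the labels name a total RNA kit. Totals were 33407430 to 48832814 counts, and counts of mice of the same genotype differed by more than sampling noise (chi-square per degree of freedom of at least 12.9).

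Gene IDs were matched to GENCODE M21 (22647 of 22880), and all 10 genes by their symbol. In edgeR 4.0.16 (R 4.3.3), filterByExpr (minimum count 10, minimum total 15), TMM and the quasi-likelihood F-test were applied to all genes with Benjamini-Hochberg adjustment. For a call the adjusted p had to be under 0.05 and the log2 fold change 0.58 or more in size, the thresholds of the study, which used the exact test of edgeR. Log2 CPM used a prior count of 2. Standard errors and 95% intervals follow from the F statistic. The permutation test planned for receptors under the filter was not needed. The fit was tested on simulated data: at a log2 fold change of 1.5, 91.9% of the 198 altered genes among 13886 were recovered, and 9 of 191 calls were false. Smaller changes, and as many altered genes as the 2905 called in the data, were not simulated.

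The members, lists and promoter patterns were chosen with earlier results of these data known. Named genes were all members and Dnm2, a fixed set of pathway genes and, in each list, up to 3 called genes of smallest p-value in each direction, or every called gene in lists with fewer than 5. Cd163, Tlr5, Tlr11, Tlr12, Ifnb1, Tnf, Il6, Ly6g, Cd79a, Zbtb46, Clec9a, Xcr1, Hspd1 and Hmgb1 were added after their values were seen. So were Arl8b, Tab1, Tab2, Il1b, S100a8 and S100a9. Of 147 listed symbols, 146 were matched. Alternatives were no filter, a minimum of 10 counts in all mice, median-ratio factors, scaling by library size alone, the exact test, DESeq2 1.42.0, a block for the mouse numbers of titles or descriptions, no fold threshold, a prior count of 0.5 and leaving out each mouse. The class balance without Tlr3 or Tlr2 and the ratios to single macrophage markers were added after seeing the data.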

Additional observations from a re-analysis of the deposited data

Results flagged for a closer look

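Within each genotype, the highest or lowest mouse was compared with the other 3 for 58 genes, which gave 116 groups. In 11 of them that mouse lay far from the others by Dixon's 95% limit, and chance alone marks about 1 in 20 groups. Among the 10 genes described, this applied to Tlr9, at 1.12 normalized CPM in control 4 against 0.564 to 0.605 in the other controls. Control 4 also lay far above the other controls for Csf1r (49.6 against 26.2 to 29.4), C1qa (36.9 against 18.6 to 20.8), Cxcl10 (0.53 against 0.0224 to 0.0891) and Fn1 (634 against 504 to 519). Dnm2 wt/K562E mouse 1 lay apart for Ctss (46.1 against 32.3 to 33.5), Fn1 (1700 against 1080 to 1120) and, below the others, Cd36 (772 against 852 to 863). Traf3 was at 39.6 in control 2 against 36.7 to 36.9, and at 74.2 in mutant 4 against 66.4 to 67.1. Dnm2 was at 59.2 in control 3 against 68.5 to 68.8.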

How the results depend on the processing

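Tlr2, Tlr7, Tlr8, Tlr9 and Tlr13 were called higher in the main comparison and in each alternative run, and the endosomal count was 4 throughout. The surface count of 1 became 3 with library size alone (Tlr1, Tlr2 and Tlr6), a scaling under which the median over all genes became 0.219, and ranged from 1 to 2 when mice were left out, with 2 without control 1 (Tlr1 and Tlr2). With library size alone Unc93b1 was also called (0.74, adjusted p = 0.00381), Tlr1 was at 1.36 (adjusted p = 0.0427) and Tlr6 at 0.66 (adjusted p = 0.0137). That scaling called 2865 genes higher and 564 lower, against 1806 and 1099. Tlr3 changed sign with it (0.161) and without control 4 (0.0339). Endosomal minus surface reversed to 0.185 without Tlr3, to 0.440 without Tlr2 and to 0.0234 without control 2, and its range when mice were left out was -0.228 to 0.0234. The 21 pathway genes called higher ranged from 16 to 23 without single mice, and those called lower, 0 in the quasi-likelihood test, were 0 to 1 without single mice (1 without control 3) and 4 without the fold threshold, where Arl8b, Cd36, Tab1 and Tab2 passed.

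Taking the mouse numbers of the titles or the descriptions as a replicate block left the endosomal count at 4 and the surface count at 1, and gave 19 or 21 pathway genes called higher. Mice with the same number were different animals whose deviations did not go together (mean correlation -0.11 for titles and -0.03 for descriptions), so no pairing was used. The cause of the changes was not tested. Tlr1, with 4 counts in control 2, had no value when 10 counts were required in every mouse, and depth limits what can be said of it and of Tlr9.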
